A study of Rattus norvegicus with 320 samples.

Results

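miR-128, miR-137, miR-138 and miR-153 are microRNAs (miRNAs) known mainly from neurons. Their members here were the rows of the count table that carry 1 of these 4 names with any arm or copy suffix, 10 of 616 miRNAs: rno-miR-128-3p, rno-miR-128-1-5p, rno-miR-128-2-5p, rno-miR-137-3p, rno-miR-137-5p, rno-miR-138-5p, rno-miR-138-1-3p, rno-miR-138-2-3p, rno-miR-153-3p and rno-miR-153-5p. They were measured by small RNA sequencing in untreated rats of the inbred Fischer 344 strain (Fisher 344 in the labels), females and males aged 2, 6, 21 and 104 weeks. The 11 organs were brain, thymus, spleen, testis, uterus, lung, liver, heart, kidney, skeletal muscle and adrenal gland, with 4 replicates for each organ, sex and age, 320 libraries in all. Each library came from 1 organ of 1 rat, ground whole, and the organs of a rat were shared between groups. In such samples, fewer cells of a type and less RNA per cell cannot be told apart.

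A miRNA is cut from a hairpin precursor, and either arm of the hairpin can give a mature strand of about the same size. The strand that is kept more often guides the silencing complex to messenger RNAs through its seed, bases 2 to 8, and the other arm is mostly degraded, so that it is a low readout of the same precursor. miR-128 is abundant in neurons and limits their excitability. miR-137 acts in neuronal maturation and synapse function, miR-138 limits the size of dendritic spines, and miR-153 acts on proteins of synaptic vesicle release.

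All 10 mature sequences of the table were identical to RefSeq entries on the build GRCr8. They are shown because the seed separates the families and because 2 of the families have gene copies that differ in 1 arm only. Capitals mark the seed.
rno-miR-128-3p: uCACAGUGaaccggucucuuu
rno-miR-128-1-5p: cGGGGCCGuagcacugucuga
rno-miR-128-2-5p: gGGGGCCGaugcacuguaaga
rno-miR-137-3p: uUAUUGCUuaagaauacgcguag
rno-miR-137-5p: aCGGGUAUucuuggguggauaa
rno-miR-138-5p: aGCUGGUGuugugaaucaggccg
rno-miR-138-1-3p: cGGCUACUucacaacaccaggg
rno-miR-138-2-3p: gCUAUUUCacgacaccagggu
rno-miR-153-3p: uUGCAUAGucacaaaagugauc
rno-miR-153-5p: gUCAUUUUugugauguugcagcu

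The only seed shared by 2 members was GGGGCCG of miR-128-1-5p and miR-128-2-5p, and no other miRNA of the table carried the seed of any member. miR-128-3p and miR-138-5p are each made from 2 gene copies with the same mature sequence, so that their counts are sums over both copies. The opposite arms are copy-specific. miR-128-1-5p and miR-128-2-5p differed at 5 of 21 positions counted from the 5′ end (C1G, U9A, A10U, C18A and U19A, with the base of copy 1 first). miR-138-1-3p and miR-138-2-3p were identical at 18 of 20 aligned positions, with starts offset by 2. Over the full length, both pairs differ by more bases than the authors' alignment allowed, fewer than 2. The hairpins of the miR-128 copies are shown with miR-128-3p in capitals, since the copies are compared below.
Mir128-1: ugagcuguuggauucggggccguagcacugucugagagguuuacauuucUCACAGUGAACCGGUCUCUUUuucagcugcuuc
Mir128-2: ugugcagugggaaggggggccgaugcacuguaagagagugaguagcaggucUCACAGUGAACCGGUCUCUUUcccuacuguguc

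On GRCr8, Mir128-1 lies at chr13:42251884-42251965 (plus strand) within the span of R3hdm1, and Mir128-2 at chr8:120963795-120963878 (minus strand) within that of Arpp21. Mir137 lies at chr2:209165709-209165810 (plus strand) in a long non-coding RNA gene. Mir138-1 lies at chr8:131178434-131178532 (plus strand), also within long non-coding RNA genes, and Mir138-2 at chr19:10680133-10680214 (minus strand) within the span of Slc12a3, the thiazide-sensitive salt cotransporter gene. Mir153 lies at chr6:144306594-144306680 (plus strand) within the span of Ptprn2, which encodes a protein of dense-core vesicles. Mir128-2 and Mir153 also overlapped long non-coding RNA genes. Genes were matched by overlap of position only. Their strands and their exon and intron boundaries were not used here, so that none is named as a host gene.

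CPM values below are counts divided by the total of the library, on the usual scale of that unit. Totals were 315550 to 10571766 over all 318 libraries kept and 1164462 to 4958803 over the 31 of brain, so that 3 counts in a brain library equal 0.605 to 2.58 CPM. A miRNA with at most 3 counts in a library is called at the floor there, and intervals from counts cover counting error only. Brn_M_006_3 (brain, male, week 6, replicate 3) and Spl_F_104_4 (spleen, female, week 104, replicate 4) were left out, as the study did. Brain libraries held 54146 to 111011 CPM summed over 21 neuronal miRNAs. The highest library of any other organ that was kept held 1794 CPM of them, in adrenal gland, and the organ means were 117 CPM in liver to 1026 CPM in adrenal gland. The study names Brn_F_104_4 for a low share of miRNA reads, and Brn_F_021_2 stood far above its group in several members. The study's metadata list Brn_F_006_2 under a library name of muscle, and Msc_F_006_2 under a library name of brain. Both were used under their deposited labels, and Brn_F_006_2 held 38832 CPM of miR-128-3p.

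The first comparison was of brain with the other organs, which the study used to define organ-enriched miRNAs. All 10 members had their highest mean in brain. miR-128-3p was the 8th most abundant of all miRNAs there, with 18914 CPM in the lowest brain library, 30182 CPM at the median and 54733 CPM in the highest (mean 30327 ± 8453, SD, n = 31). miR-138-5p ranged from 2175 CPM over a median of 4190 CPM to 13005 CPM (mean 4815 ± 2178). miR-153-3p ranged from 1014 CPM over 1743 CPM to 2535 CPM (mean 1785 ± 372). These strands, with miR-137-3p, are the major products of their hairpins.

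miR-137-3p ranged from 272 CPM over 461 CPM to 1216 CPM in brain (mean 481 ± 161, n = 31). The remaining members are the minor arms and were lower. The means in brain were 55.8 ± 11.3 CPM for miR-128-1-5p, 41.0 ± 13.7 CPM for miR-153-5p, 16.5 ± 8.83 CPM for miR-128-2-5p, 15.4 ± 3.598 CPM for miR-138-1-3p, 10.2 ± 3.29 CPM for miR-138-2-3p and 3.41 ± 1.20 CPM for miR-137-5p. For miR-128-2-5p, 11 other libraries reached the lowest brain library, and for miR-137-5p 1 did. For each remaining member, every brain library lay above each of the 287 other libraries. How many of all miRNAs do so, or have their highest mean in brain, was not counted.

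**Figure D1:**
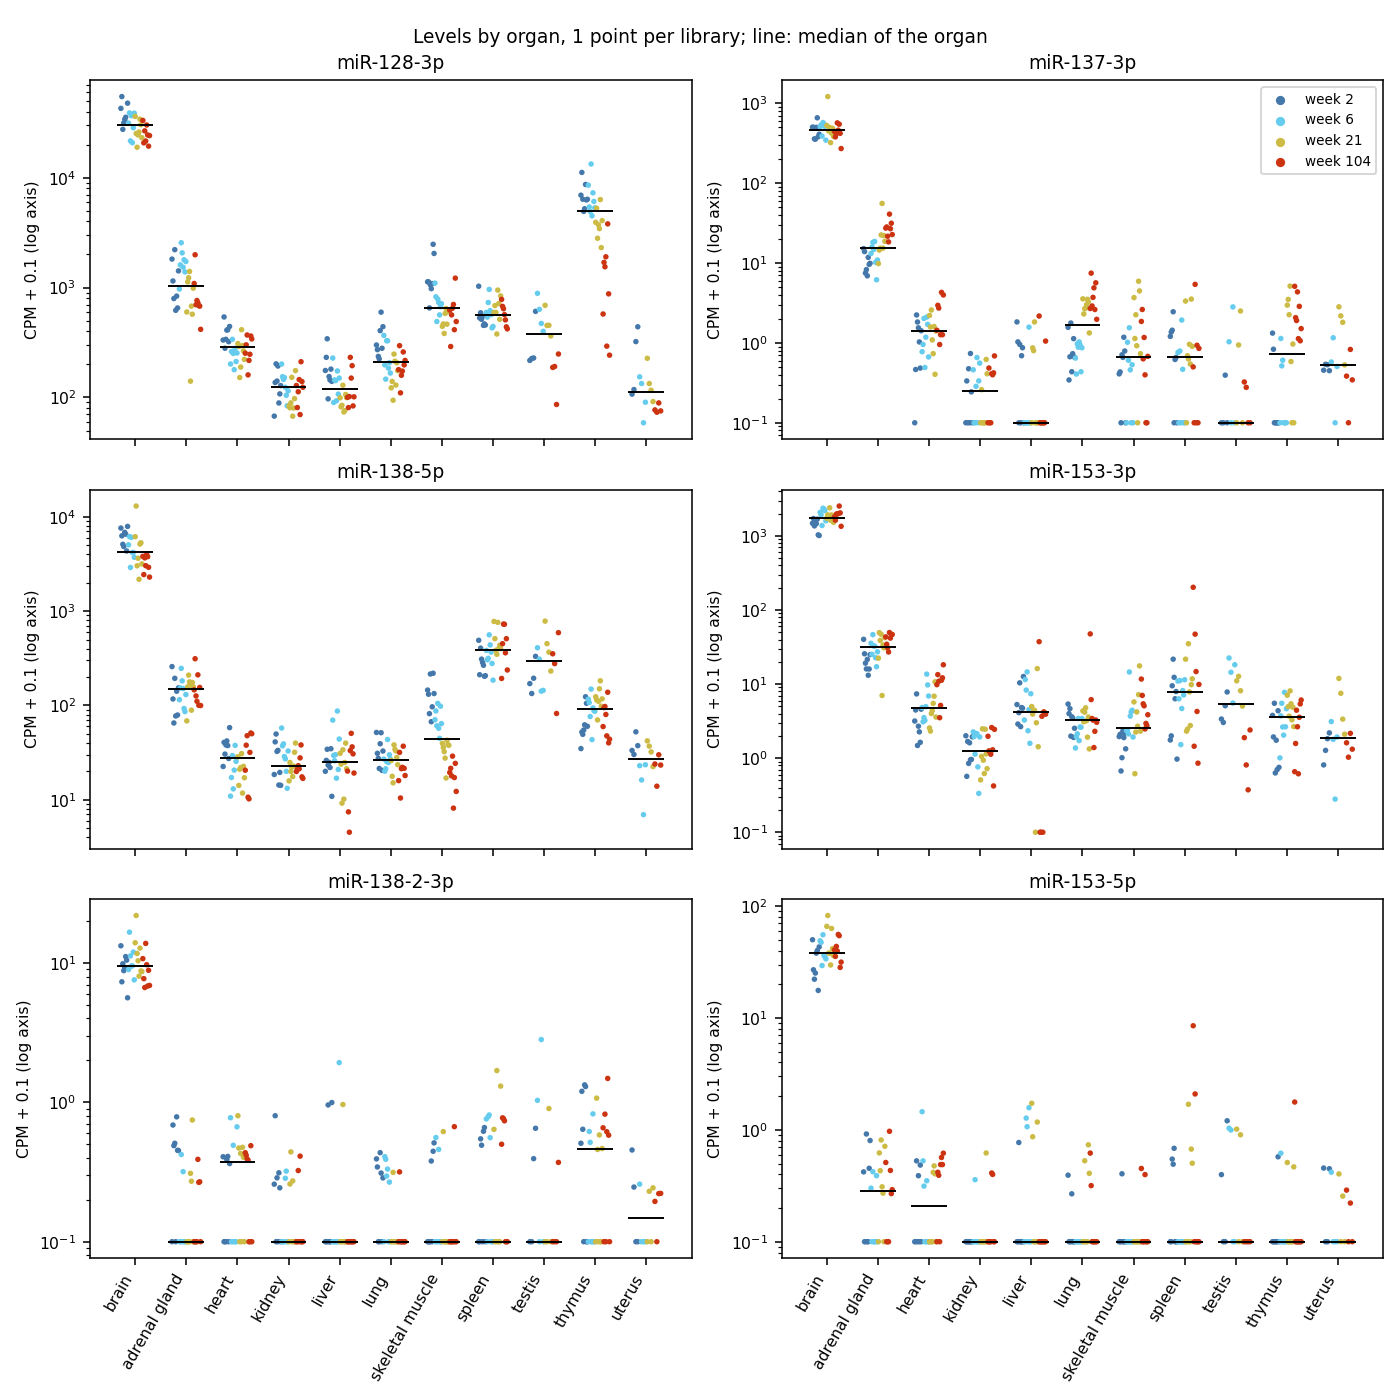
Levels of 6 members in all 318 libraries, as CPM + 0.1 on a log axis, by organ. Each point is a library coloured by age and each line is the median of the organ. The brain libraries stand above all others in each panel, thymus is next for miR-128-3p, and many libraries outside brain are at 0 for miR-138-2-3p and miR-153-5p.

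How much the members were confined to brain differed between families. Brain held 95.6% of the summed organ means of miR-153-3p, 95.7% of miR-153-5p, 94.8% of miR-137-3p and 90.6% of miR-137-5p. The share was 84.3% for miR-138-2-3p, 80.7% for miR-138-5p, 77.7% for miR-128-3p, 68.7% for miR-138-1-3p, 64.2% for miR-128-2-5p and 51.4% for miR-128-1-5p. miR-137 and miR-153 were thus the most brain-restricted of these families by this measure, and the 5p arms of miR-128 the least.

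The second organ was not the same for each family. For miR-128-3p it was thymus, with 242 to 13326 CPM (mean 4816 ± 3024, n = 32), followed by adrenal gland (1154 ± 585, n = 32), skeletal muscle (799 ± 458, n = 32) and spleen (605 ± 166, n = 31). Testis had 396 ± 221 CPM (n = 16), heart 295 ± 88.4, lung 238 ± 107, uterus 144 ± 103 (n = 16), liver 137.1 ± 59.8 and kidney 124 ± 41.5 CPM. In this order, adrenal gland and muscle, muscle and spleen, testis and heart, heart and lung, uterus and liver, and liver and kidney did not differ by more than their pooled SD on the log2 scale. For miR-138-5p the order after brain was spleen (401 ± 169), testis (311 ± 186), adrenal gland (147 ± 58.0), thymus (89.7 ± 37.1) and muscle (65.5 ± 54.7 CPM). Each of the remaining organs had a mean of 26.8 to 28.5 CPM of it.

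miR-137-3p and miR-153-3p both had adrenal gland, which holds the neural-crest-derived chromaffin cells, as the second organ. Their means there were 18.1 ± 10.5 CPM and 31.4 ± 11.8 CPM (n = 32), with every library above the floor. miR-137-3p had means of at most 2.02 CPM in the remaining organs, and no library of kidney, liver or testis had more than 3 counts of it. miR-153-3p had means of 1.32 CPM in kidney to 16.0 CPM in spleen. The spleen value rests on 1 library, Spl_F_104_1, with 203 CPM of miR-153-3p against 0.756 to 47.1 CPM in the other 6 kept at week 104. In that library miR-137-3p was at 0.401 CPM, miR-124-3p at 8.41 CPM and the 21 neuronal miRNAs at 369 CPM, of which the last 2 lay within the range of the others (up to 31.9 and 438 CPM).

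Of the minor arms, miR-138-2-3p, miR-153-5p and miR-137-5p were at or near the floor outside brain. The others were not so in each organ. miR-128-1-5p was above 3 counts in all 32 libraries each of adrenal gland, kidney and lung. miR-128-2-5p was above 3 counts in 26 of 32 thymus libraries, and miR-138-1-3p in 20 of 31 spleen libraries. miR-138-2-3p had no library above 3 counts in any of the 10 other organs, with 26 counts over the 32 thymus libraries and 998 over the 31 of brain. The pooled CPM of brain was 27.1 times that of thymus (95% exact interval 18.4 to 41.8) and 29.7 times that of spleen (19.1 to 48.8). miR-153-5p was above 3 counts in 1 library each of adrenal gland, spleen and testis, and its pooled ratio of brain to spleen, the lowest, was 76.3 (53.9 to 112). Of its 32 counts in spleen, 21 lay in Spl_F_104_1. miR-137-5p had 0 counts in liver, skeletal muscle, spleen and testis, where brain was at least 34.9-fold, 85.1-fold, 63.2-fold and 50.8-fold higher against 3 counts over the group.

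Brain was then compared with each of the 10 organs at each of the 4 ages, in 1 fit per age (edgeR, TMM scaling). The criterion for brain enrichment was a 4-fold excess in brain at an adjusted p under 0.05, required in all 40 comparisons. It was met by 4 of the 10 members, miR-137-3p, miR-138-2-3p, miR-153-3p and miR-153-5p, and by 7.95% of the 616 miRNAs. The smallest log2 fold change was 2.80 ± 0.31 (SE) for miR-137-3p and 4.37 ± 0.63 for miR-153-3p, both against adrenal gland at week 104. It was 4.26 for miR-153-5p against spleen at week 104 and 2.60 for miR-138-2-3p against thymus at week 2, fitted against organs at or near the floor. The spleen level of miR-153-5p rested mostly on Spl_F_104_1, with 8.41 CPM against 0 to 1.99 CPM in the other 6 kept at week 104. Among the 21 neuronal miRNAs, 11 met the criterion.

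The other members missed the criterion in 1 to 10 comparisons. miR-138-5p passed 39, with 1.86 ± 0.37 against testis at week 104 (adjusted p = 7.24e-06), and miR-137-5p also passed 39, missing adrenal gland at week 21. miR-128-3p passed 37 and missed only thymus at weeks 2, 6 and 21, where the smallest value was 0.87 ± 0.19 at week 6 (adjusted p = 2.22e-05). miR-138-1-3p passed 37, missing spleen at weeks 6 and 21 and testis at week 104. miR-128-2-5p passed 35, and at week 6 it was lower in brain than in thymus, by -0.75 ± 0.25 (adjusted p = 0.00549), whereas with library size only its smallest value over the comparisons was 0.56. miR-128-1-5p passed 30, and its misses were in thymus and spleen, in adrenal gland at week 2 and in testis at weeks 2 and 104. With library size only, 8 members met the criterion, but the share of all miRNAs that met it on this scale is not given here.

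The second comparison was of brain across age. Between weeks 2 and 104, miR-153-3p, miR-153-5p and miR-128-1-5p were higher and miR-138-5p and miR-128-2-5p lower, with 5 of 10 members called against 54.7% of all miRNAs (28.7% higher and 26% lower). The share was close to this background. The median log2 fold change was 0.28 over the members and 0.07 over all miRNAs. TMM scaling assumes that most miRNAs keep their level, and its factors fell from 1.22 ± 0.0862 (SD, n = 8) at week 2 to 0.917 ± 0.0951 (n = 8) at week 104. With library size only, the median of all miRNAs was -0.33, a shift of -0.40. The change of each member in brain from week 2 to week 104 is therefore given on both scales. Steps between neighbouring ages are given with TMM unless said otherwise.

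The 2 changes that were called on both scales in the downward direction were those of miR-138-5p and miR-128-2-5p. miR-138-5p was at 4338 CPM in the lowest, 6417 CPM at the median and 7911 CPM in the highest library of week 2, and at 2297, 3351 and 3978 CPM at week 104 (n = 8 each). The groups did not overlap, but how many of all miRNAs lay without overlap between these ages was not counted. The log2 fold change was -0.51 ± 0.22 (SE, adjusted p = 0.0464) with TMM and -0.93 (adjusted p = 0.00155) with library size only. The TMM call was lost without replicate 1 (-0.56, adjusted p = 0.0953) and without replicate 4 (-0.42, adjusted p = 0.196). At weeks 6 and 21 its medians were 4190 and 4390 CPM, and no step between neighbouring ages was called.

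miR-128-2-5p was at 9.78, 26.6 and 48.6 CPM (lowest, median and highest) at week 2, at 8.43, 9.89 and 19.1 CPM at week 6 (n = 7), at 11.9, 18.3 and 22.4 CPM at week 21 and at 8.09, 9.88 and 14.5 CPM at week 104. The medians went down, up and down again, and the ranges of weeks 2 and 104 overlapped. The steps were -0.86 ± 0.22 (adjusted p = 0.00224) from week 2 to week 6, 0.80 ± 0.22 (adjusted p = 0.0144) from week 6 to week 21 and -0.79 ± 0.22 (adjusted p = 0.0379) from week 21 to week 104. The whole change was -0.85 ± 0.22 (adjusted p = 0.00154), or -1.26 with library size only. Of the 7 week 6 libraries, 5 were sequenced on lane 8, which held no brain library of another age. With the lane in the fit, the steps were -0.27 (adjusted p = 0.795), 0.17 (adjusted p = 0.973) and -0.69 (adjusted p = 0.16). Lane 7 was the only one with week 6 and another age, with 2 libraries of week 6 and 1 each of weeks 2 and 104, too few for a test within it, so that lane and week 6 cannot be told apart in brain. The last step was not called with Brn_M_006_3 kept (adjusted p = 0.087) or without any single replicate number, and the step before it was not called without replicate 2 or 3.

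miR-153-3p rose on both scales. It was at 1014, 1476 and 1720 CPM at week 2 and at 1351, 1980 and 2535 CPM at week 104, and the ranges overlapped. The log2 fold change was 0.84 ± 0.12 (adjusted p = 5.62e-07), or 0.44 (adjusted p = 0.00568) with library size only. The step from week 2 to week 6, 0.76 ± 0.12 (adjusted p = 7.14e-06), was the only one between neighbouring ages that was called. miR-153-5p, from the other arm, was at 17.5, 32.3 and 49.9 CPM at week 2 and at 28.2, 39.9 and 55.6 CPM at week 104. Its log2 fold change was 0.76 ± 0.20 (adjusted p = 0.00183) and was not called with library size only (0.33, adjusted p = 0.207).

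miR-128-1-5p was at 28.9, 51.1 and 60.1 CPM at week 2 and at 48.2, 59.9 and 71.3 CPM at week 104, with overlapping ranges. Its log2 fold change was 0.74 ± 0.16 (adjusted p = 0.000174), and 0.32 (adjusted p = 0.0564) with library size only. miR-128-3p, the shared product of both copies, was at 27533, 34756 and 54733 CPM at week 2 and at 19365, 24327 and 33196 CPM at week 104. Its change was -0.18 ± 0.16 (adjusted p = 0.38) with TMM and -0.61 (adjusted p = 0.00253) with library size only, so that its call depended on the scaling. Of the remaining members, the TMM values were 0.35 ± 0.15 for miR-137-3p (adjusted p = 0.0554), 0.30 ± 0.19 for miR-138-2-3p, 0.26 ± 0.15 for miR-138-1-3p and 0.09 ± 0.22 for miR-137-5p, none of them called, and all 4 were below 0 with library size only. Without Brn_F_104_4, miR-137-5p was at -0.0514. Without Brn_F_021_2, the value of miR-137-3p was also 0.35, with an adjusted p of 0.0109.

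**Figure D2:**
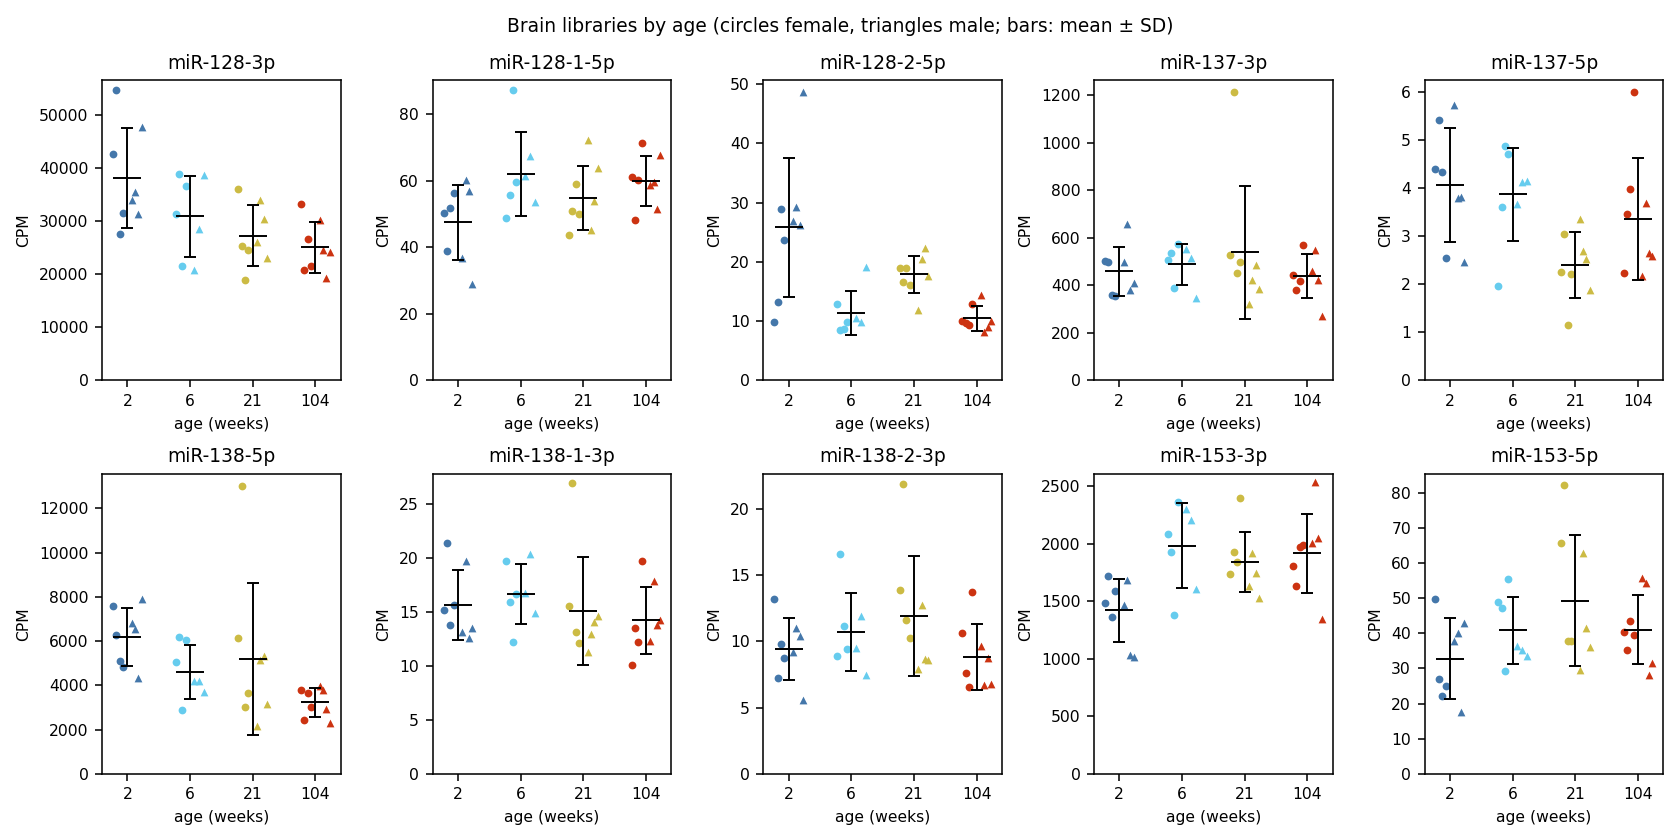
CPM of the 10 members in the 31 brain libraries by age in weeks, each axis from 0. Points are libraries (circles female, triangles male) and bars are mean ± SD. miR-138-5p does not overlap between weeks 2 and 104, and how many of all miRNAs do not was not counted. The highest points of miR-137-3p (1216 CPM) and miR-138-5p (13005 CPM) are the same week 21 library.

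From week 2 to week 6, 5 members were called, against 42.9% of all miRNAs. The higher ones were miR-128-1-5p, miR-138-1-3p, miR-153-3p and miR-153-5p (23.5% of all miRNAs were higher), and the lower one was miR-128-2-5p (19.3% lower). The value of miR-128-1-5p was 0.66 ± 0.16 (adjusted p = 0.00107), that of miR-153-5p 0.57 ± 0.20 (adjusted p = 0.0235) and that of miR-138-1-3p 0.38 ± 0.15 (adjusted p = 0.0418). The calls of miR-138-1-3p (0.10) and miR-153-5p (0.29) were lost with library size only, and also without Brn_F_104_4 or without Brn_F_006_2. With the lane in the fit, 2 of the 5 calls remained, miR-128-1-5p (0.96, adjusted p = 0.0327) and miR-153-3p (0.75, adjusted p = 0.0131), and 110 miRNAs were called in place of 264. In the later steps, miR-128-2-5p was the only member called. In the step from week 6 to week 21, 18.5% of all miRNAs were called (8.6% higher and 9.9% lower), and in the step from week 21 to week 104, 2.92% (0.487% higher and 2.44% lower).

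Females and males were compared in brain over all ages. No member was called, against 0.325% of all miRNAs (2 of 616), and the log2 differences of female minus male lay between -0.31 ± 0.16 for miR-128-2-5p and 0.26 ± 0.13 for miR-138-2-3p. At an unadjusted p, the lowest of the members was 0.0538. DESeq2 and the quasi-likelihood test with library size only also called 0 members. The change from week 2 to week 104 was compared between the sexes as an interaction. It was called for 0 members and for 0.974% of all miRNAs, with the largest value for miR-153-3p (-0.59 ± 0.24, female minus male, unadjusted p = 0.0185, adjusted p = 0.246).

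A ratio of 2 miRNAs within a library does not depend on the scaling between libraries. As a description, each member was set against miR-124-3p, an abundant neuronal miRNA of the list, which was itself higher at week 104 than at week 2 by 1.12 ± 0.11 (adjusted p = 1.32e-09), or 0.71 with library size only. That rise was larger than the change of any member, so the choice of this reference fixes a lower ratio for each of them. The mean log2 ratio was lower at week 104 for all 10 members. It was lower for 91.9% of the 615 miRNAs other than miR-124-3p, a set that includes the members. The median difference was -0.85 over the members and -1.07 over all 615. The share below 0 is thus no result about the members. A common reference takes nearly the same amount from each change, so the order below repeats that of the members' own changes with TMM. The differences were -1.89 for miR-128-2-5p, -1.66 for miR-138-5p and -1.32 for miR-128-3p, followed by -1.02 for miR-137-5p, -0.87 for miR-138-1-3p, -0.83 for miR-138-2-3p and -0.79 for miR-137-3p. The smallest were -0.37 for miR-128-1-5p, -0.36 for miR-153-5p and -0.29 for miR-153-3p. These 3 were also the members called higher with TMM, which follows from the common reference and is no separate result.

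**Figure D3:**
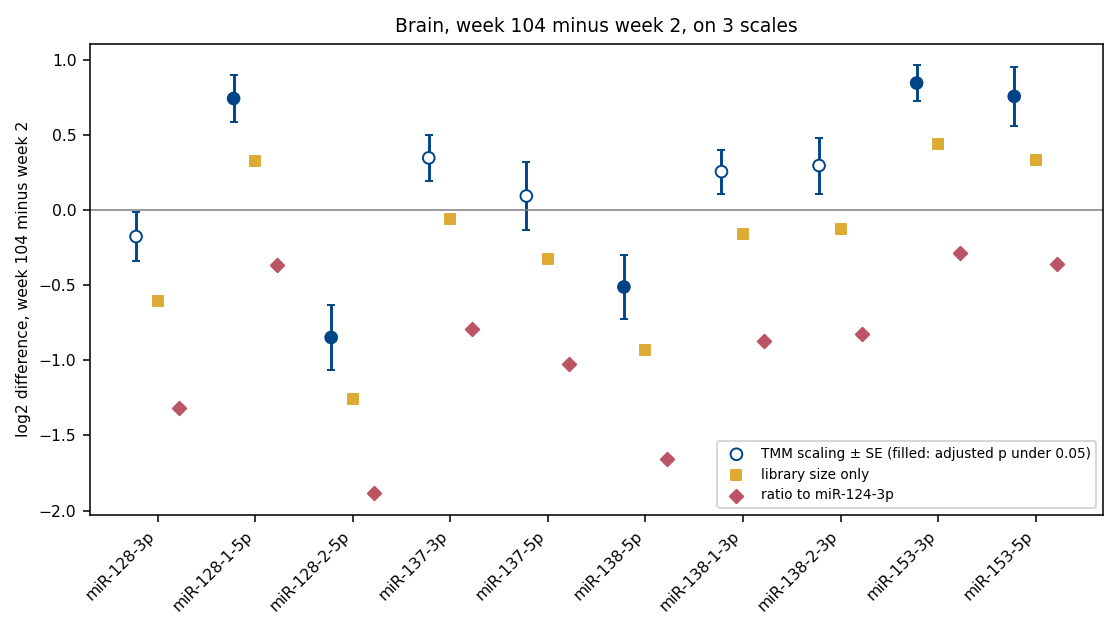
log2 difference of week 104 minus week 2 in brain for the 10 members on 3 scales: TMM with SE (filled circles called at an adjusted p under 0.05), library size only (squares) and the ratio to miR-124-3p (diamonds). For each member the ratio is the lowest of the 3, which the rise of miR-124-3p itself fixes, and only miR-128-2-5p, miR-138-5p and miR-128-3p are below 0 on all 3.

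Other neuronal miRNAs moved in both directions over the same interval. Of the 21 in the list, 11 were higher and 7 lower, with a median log2 fold change of 0.53. The highest were miR-384-5p (1.35 ± 0.16) and miR-132-5p (1.23 ± 0.16), a product of an activity-regulated locus. The lowest were miR-433-3p (-1.21 ± 0.09) and miR-323-3p (-1.17 ± 0.11), both from the imprinted cluster on the Dlk1-Dio3 locus. Markers of other cells of the brain moved as well. Of 5 oligodendrocyte miRNAs (the miR-219a and miR-338 strands) 4 were higher and 1 lower, and their summed level was 1645 to 3412 CPM at week 2 and 6166 to 8829 CPM at week 104. All 3 choroid plexus miRNAs and all 3 smooth muscle miRNAs were higher, 0 of 4 red cell miRNAs were called, and 3 of 5 leukocyte miRNAs were higher and 1 lower. The part of these cells in the members' values was not tested.

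The copies of miR-128 could be compared through their 5p arms, a comparison added after the values were seen. In brain, miR-128-2-5p made up 33.7% of both 5p products at week 2 (460 of 1363 counts, 95% exact interval 31.2 to 36.3%), 15.2% at week 6, 24.5% at week 21 and 15.1% at week 104 (13.4 to 16.9%). Single libraries ranged from 16.3 to 62.7% at week 2 and from 11.9 to 19.8% at week 104. The mean log2 ratio of copy 2 to copy 1 was lower by -1.52 at week 104 than at week 2 (exact permutation, adjusted p = 0.0014) and by -1.48 at week 6 (exact adjusted p = 0.0035). At week 21 the difference was -0.63 (exact adjusted p = 0.0876). Of the 7 week 6 libraries, 5 were on lane 8 and 2 on lane 7, and the lane was not tested for this ratio.

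The share of copy 2 varied more between organs. In thymus it was 46.8% at week 2 (203 of 434 counts) and 20.2% at week 104 (23 of 114 counts, 13.2 to 28.7%), and over all ages 40.1% (37.1 to 43.2%). Skeletal muscle had 31.0% (25.6 to 36.9%) and adrenal gland 15.4% (12.7 to 18.3%) over all ages. It was 4.12% in lung (2.63 to 6.12%), 2.68% in uterus, 2.62% in spleen (1.56 to 4.11%), 1.46% in heart, 1.02% in kidney and 0.831% in testis (0.172 to 2.41%). In liver the 5p products had 98 counts in all, 3 of them from copy 2. The intervals of thymus and brain, which cover counting error only, thus lay apart from those of spleen, lung and testis, although the latter held 361 to 687 counts each. Single libraries with enough counts for a share ranged from 9.09 to 62.7% in brain and from 0 to 61.5% in thymus, against 0 to 13.3% in lung. Over the 44 combinations of organ and age, the mean level of miR-128-3p correlated with that of miR-128-2-5p at r = 0.95 and with that of miR-128-1-5p at 0.84, a description of points that share libraries. The 5p arms are a small fraction of the 3p product and can differ in stability between copies, so that the share is not a measure of transcription.

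**Figure D4:**
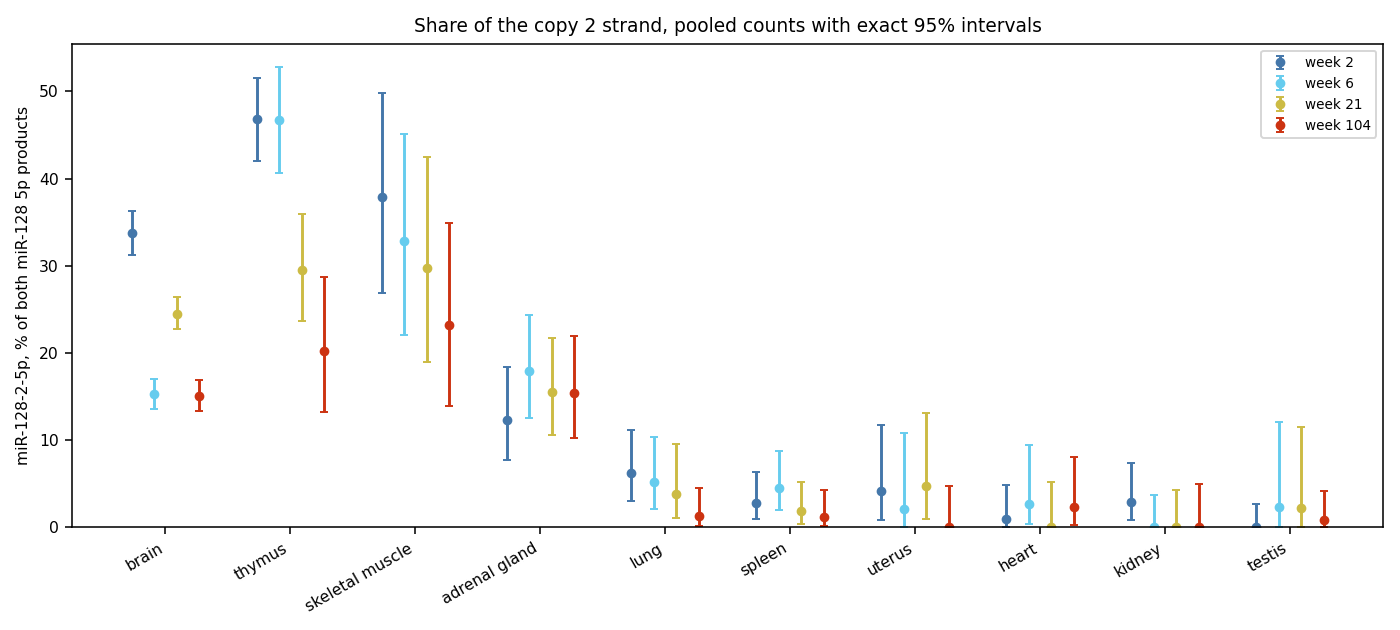
Share of miR-128-2-5p among both miR-128 5p products, in percent of pooled counts, by organ and age, with exact 95% intervals for counting error. Thymus and skeletal muscle have the highest shares at each age, brain and adrenal gland come next, and lung, spleen, uterus, heart, kidney and testis have shares below 7% at each age.

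For miR-138 the copies were compared through their 3p arms, and miR-138-2-3p was also set against miR-138-5p, the shared product. In brain, miR-138-2-3p was 36.6% of both 3p products at week 2 (175 of 478 counts), 38.6% at week 6, 44.1% at week 21 and 37.5% at week 104. In spleen it was 11.2% (20 of 178 counts, 6.9998 to 16.8%) and in adrenal gland 11.3% (17 of 150 counts, 6.74 to 17.5%). Few counts lay behind the higher values of thymus, 46.4% (26 of 56 counts, 33.0 to 60.3%), and heart, 65.5% (19 of 29 counts, 45.7 to 82.1%). The interval of brain over all ages was 37.9 to 41.7%, but single brain libraries ranged from 25.3 to 51.4%. No heart library held more than 2 counts of either 3p arm, so that no difference between heart and brain is read here. The log2 ratio of miR-138-2-3p to miR-138-5p in brain was higher than at week 2 by 0.60 at week 6 (exact permutation, adjusted p = 0.0305), by 0.71 at week 21 (exact adjusted p = 0.0168) and by 0.83 at week 104 (exact adjusted p = 0.0103). All 3 calls were lost without replicate 1, where the differences were 0.69, 0.65 and 0.85, and with medians in place of means those of weeks 6 and 21 were lost. This ratio does not separate the copies. From week 2 to week 104 the TMM values of both 3p arms were alike, 0.26 ± 0.15 for miR-138-1-3p and 0.30 ± 0.19 for miR-138-2-3p. That of miR-138-5p was -0.51 ± 0.22.

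The third comparison was of weeks 2 and 104 in each other organ. How many of all miRNAs lay without overlap between these ages was not counted in any organ. Where overlap is given below, it is a description and no result about the members. In thymus, which shrinks after puberty, all 3 products of miR-128 fell, with 5 members called in all against 58% of all miRNAs. miR-128-3p was at 4931 CPM in the lowest, 6365 CPM at the median and 11165 CPM in the highest library of week 2, and at 242, 1211 and 3799 CPM at week 104 (n = 8 each), with no overlap. Its means were 6990, 6923, 3984 and 1366 CPM at weeks 2, 6, 21 and 104. The log2 fold change was -2.74 ± 0.34 (adjusted p = 1.21e-08), and -2.36 with library size only. miR-128-1-5p fell from a mean of 13.8 to 5.32 CPM (-1.68 ± 0.30) and miR-128-2-5p from 12.8 to 1.39 CPM (-3.44 ± 0.41), both without overlap.

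Over the same interval in thymus, the summed level of 5 leukocyte miRNAs was 36792 to 57418 CPM at week 2 and 11709 to 29862 CPM at week 104, and that of 4 red cell miRNAs was 809 to 1891 CPM and 6286 to 93919 CPM. Of the leukocyte list 2 were higher and 3 lower, and all 4 red cell miRNAs were higher. Their part in the fall of miR-128 was not tested. Without Thm_M_104_1, the change of miR-128-3p was -2.59. miR-137-3p was higher at week 104 (mean 2.40 CPM, 6 of 8 libraries above 3 counts) than at week 2, where no library was above 3 counts. miR-138-1-3p was called as well, with 2 of the 32 thymus libraries above 3 counts, and its call was lost with DESeq2 (adjusted p = 0.0935).

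**Figure D5:**
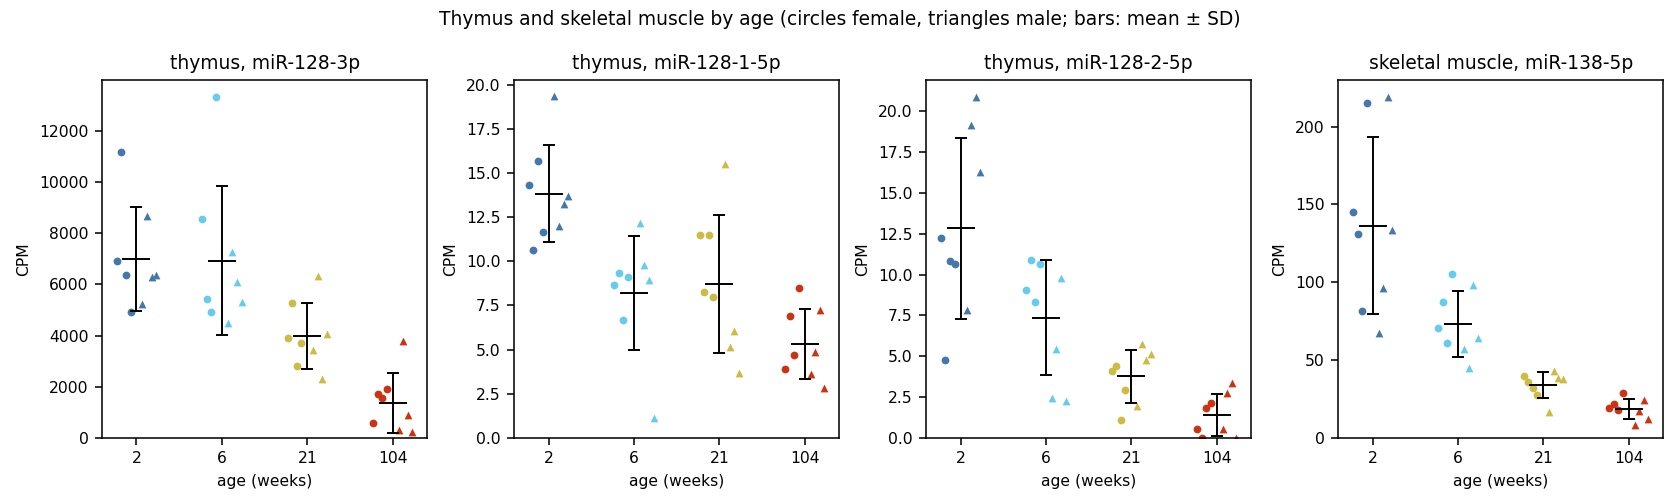
CPM of the 3 miR-128 products in thymus and of miR-138-5p in skeletal muscle by age in weeks, each axis from 0. Points are libraries (circles female, triangles male) and bars are mean ± SD. In each panel the libraries of week 104 lie below all those of week 2, and how many of all miRNAs do so was not counted.

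In skeletal muscle, 3 members were called against 60.1% of all miRNAs. miR-138-5p fell from 67.1, 132 and 219 CPM (lowest, median and highest) at week 2 to 8.05, 18.6 and 28.9 CPM at week 104, with no overlap. The log2 fold change was -1.96 ± 0.21 (adjusted p = 5.07e-10), and -2.90 with library size only. The 21 neuronal miRNAs together were at 320 to 1067 CPM in muscle at week 2 and at 81.4 to 390 CPM at week 104, and their part in this fall was not tested. miR-153-3p rose from 0.572 to 2.24 CPM at week 2 to 2.38 to 11.6 CPM at week 104, without overlap (2.39 ± 0.45, adjusted p = 1.85e-05, and 1.48 with library size only). miR-128-1-5p had means of 2.19 and 2.34 CPM, and its call (1.14 ± 0.40) was lost with library size only (0.25, adjusted p = 0.606) and with DESeq2 (adjusted p = 0.109).

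In adrenal gland, miR-137-3p and miR-153-3p rose, with 3 members called against 45.3% of all miRNAs. miR-137-3p was at 6.82, 9.68 and 15.1 CPM at week 2 and at 18.3, 27.1 and 40.9 CPM at week 104, with no overlap (1.78 ± 0.27, adjusted p = 1.41e-06, and 1.39 with library size only). miR-153-3p went from a median of 20.3 CPM to 42.5 CPM (n = 8 each), with overlapping ranges and a log2 fold change of 1.25 ± 0.20 (adjusted p = 4.38e-06). The call of miR-138-5p (0.64 ± 0.20) was lost with library size only (0.23, adjusted p = 0.529). The 21 neuronal miRNAs together had a mean of 1084 CPM at week 2 and 1072 CPM at week 104 in adrenal gland.

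miR-137-3p and miR-153-3p were also higher at week 104 in heart and lung, at low levels. In heart, with 2 members called against 54.9% of all miRNAs, miR-153-3p went from a mean of 3.36 to 10.5 CPM (2.20 ± 0.29, adjusted p = 4.74e-08) and miR-137-3p from 1.04 to 2.26 CPM (1.64 ± 0.41, adjusted p = 0.00101). In lung, 3 members were called against 49.7%. There miR-137-3p went from 0.244 to 1.67 CPM at week 2 to 1.88 to 7.38 CPM at week 104, without overlap (2.49 ± 0.33, adjusted p = 1.5e-07), and miR-128-3p fell from a mean of 344 to 199 CPM (-0.54 ± 0.17, adjusted p = 0.0107). The lung call of miR-153-3p (1.04 ± 0.41) was lost with the lane in the fit and with library size only, and 1 week 104 library held 47.5 CPM of it against a median of 3.17 CPM. Marker lists moved in these organs too. In heart 9 of the 21 neuronal miRNAs were higher and 5 lower (median log2 fold change 0.76), and their sum was 241 to 346 CPM at week 2 and 271 to 663 CPM at week 104. All 5 leukocyte miRNAs were higher there (median 1.47). In lung 2 neuronal miRNAs were higher and 10 lower (median -0.37), with a sum of 770 to 1080 CPM at week 2 and 286 to 474 CPM at week 104, and 4 of 5 leukocyte miRNAs were higher (median 1.73). Their part in these results was not tested.

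In spleen, 2 members were called against 40.1% of all miRNAs. miR-138-5p went from a mean of 297 ± 103 CPM (SD, n = 8) to 458 ± 214 CPM (n = 7), a log2 fold change of 0.88 ± 0.21 (adjusted p = 0.00138), and 0.65 (adjusted p = 0.0502) with library size only. The call of miR-153-3p (1.98 ± 0.70, adjusted p = 0.0214) was lost without Spl_F_104_1 (0.91, adjusted p = 0.315) and with library size only (1.64, adjusted p = 0.0532). The methods describe low RNA integrity in the youngest spleens, so that RNA quality and age cannot be told apart there. In kidney, liver and uterus no member was called, against 44%, 46.2% and 44.9% of all miRNAs, respectively. In uterus, miR-128-3p was at 107 to 439 CPM at week 2 and at 73.2 to 89.0 CPM at week 104 (n = 4 each), without overlap, and it was called with library size only (-1.65, adjusted p = 0.00118) but not with TMM (-0.59 ± 0.34, adjusted p = 0.175).

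In testis, 3 members were called with TMM, against 55.6% of all miRNAs, but the scales differed by a shift of -1.50 in the median. miR-138-5p was at 134 to 331 CPM at week 2 and at 82.1 to 591 CPM at week 104 (n = 4 each), 2.18 ± 0.43 with TMM and 0.65 (adjusted p = 0.248) with library size only. miR-138-1-3p was 2.54 ± 0.49 and 1.01 (adjusted p = 0.104) on these scales. miR-128-3p was 0.73 ± 0.30 with TMM and -0.84 (adjusted p = 0.0563) with library size only, so that no direction can be given for it. With library size only, the median log2 fold change of all miRNAs was -2.07. Other members were called on that scale, all lower. These were miR-128-1-5p (-1.01, adjusted p = 0.00299, 8.64 to 13.4 CPM at week 2 and 3.52 to 8.06 CPM at week 104, without overlap), miR-153-3p (-1.90, adjusted p = 0.00302, 2.93 to 7.73 CPM and 0.274 to 2.30 CPM, without overlap) and miR-153-5p (adjusted p = 0.0169), which had more than 3 counts in 1 of 16 libraries. With TMM none of these 3 was called, and miR-128-1-5p was at 0.57. DESeq2 also called miR-128-1-5p (adjusted p = 0.013), but its direction there is not given here. With library size only, miR-128-1-5p and miR-153-3p fell less than the median of all miRNAs, so that their calls are no result about these members.

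The miRNAs with the pattern most like each major product were sought over the 44 combinations of organ and age by Pearson's r of mean log2(CPM + 1). For miR-128-3p they were miR-873-3p (r = 0.86), miR-873-5p (0.85) and miR-1224 (0.84), and the same 3 were nearest to miR-128-2-5p (0.89, 0.88 and 0.85). For miR-137-3p they were miR-325-5p (0.98), miR-384-5p (0.97) and miR-384-3p (0.96), and for miR-153-3p miR-325-5p (0.95), miR-7b (0.95) and miR-770-5p (0.94). For miR-138-5p they were miR-204-3p (0.89), miR-338-5p (0.88) and miR-219a-5p (0.87). The minor arms rno-miR-138-2-3p and rno-miR-153-5p both had miR-3552 and miR-764-3p among their 3 nearest, at r of 0.99. No library had more than 3 counts in 40 and 37 of the 40 combinations outside brain, respectively. These r values thus mainly set brain against the floor.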

How the data were processed

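Small RNA libraries of 11 rat organs were sequenced by the authors, who trimmed reads with fastp 0.23.2, kept those of 16 to 35 nt, aligned them with Bowtie 1.3.1 (fewer than 2 mismatches) to miRBase and counted them per miRNA (build rn7 in the submitters' processing notes). The deposited values are raw counts of 604 miRBase miRNAs and 12 candidates, without normalization, and no spike-ins were used. Members and lists were chosen with earlier results of these data known.

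CPM was computed from column totals. Age and sex were tested within an organ over groups of sex and age, and organs in 1 fit per age, with the edgeR 4.0.16 quasi-likelihood test (R 4.3.3, TMM) on all miRNAs and Benjamini-Hochberg adjustment at 0.05. SE is that of the log2 fold change. Ratios within libraries used log2 of counts plus 1 and exact two-sided permutation tests. All members are named, with the 2 highest and 2 lowest neuronal miRNAs of the brain change and the 3 nearest patterns. Alternatives were library size only, DESeq2 1.42.0, a mean count of at least 10, the 2 removed libraries kept, the lane (from the study's metadata) as covariate, a replicate block, a 2-fold threshold, 0.5 as pseudocount, medians, and leaving out single libraries or replicates. The exclusions of Brn_F_021_2, Spl_F_104_1 and Thm_M_104_1, the miR-128 copy ratio and the ratio of all other miRNAs to miR-124-3p were added after seeing the data. Scripts were tested on simulated data. RefSeq sequences are of GRCr8.

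Replicate pairs differed by more than counting noise (lowest chi-square per degree of freedom 14.9 over 480 pairs). The organs of a rat are not independent, which the fits across organs do not model.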

Additional observations from a re-analysis of the deposited data

Results flagged for a closer look

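In 70 sets of 4 brain libraries (a member in a group of sex and age), 5 single libraries lay far from the other 3 by Dixon's test, where chance gives about 1 in 20. miR-137-3p was at 1216 CPM in Brn_F_021_2 (451 to 528 CPM in the others), the library that also had the highest miR-138-5p, miR-138-1-3p, miR-138-2-3p and miR-153-5p of week 21, while its miR-124-3p (12779 CPM) lay within the range of the other week 21 libraries. miR-153-5p was at 49.9 CPM in Brn_F_002_1 (22.09 to 26.8 CPM). miR-128-2-5p was at 48.6 CPM in Brn_M_002_4 (26.3 to 29.3 CPM), the library with the lowest miR-128-1-5p of brain. miR-138-1-3p was at 19.8 CPM in Brn_M_002_2 (12.6 to 13.5 CPM) and miR-138-2-3p at 12.7 CPM in Brn_M_021_2 (7.95 to 8.67 CPM).

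Spl_F_104_4, which was left out, held more of 5 members than the other 3 libraries of its group. It had 3940 CPM of miR-128-3p (641 to 780 CPM in the others), 741 CPM of miR-138-5p (193 to 729 CPM), 40.1 CPM of miR-137-3p (0 to 5.31 CPM), 3.02 CPM of miR-128-2-5p and 1.40 CPM of miR-138-2-3p. Its miR-124-3p was at 981 CPM, and the 21 neuronal miRNAs together at 6102 CPM, against at most 438 CPM in the 7 other week 104 spleens.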

How the results depend on the processing

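Settings are grouped here by comparison, as members called unless said otherwise. From week 2 to week 6 in brain (5 called), 3 were called with library size only, without Brn_F_104_4 and without Brn_F_006_2, 2 with a mean count of at least 10 and 2 with the lane in the fit, where 110 miRNAs were called in place of 264. Leaving out a replicate gave 3 to 4. From week 6 to week 21 (1 called), 2 were called with library size only, 0 with a mean count of at least 10 and 0 with the lane, where 1 miRNA was called in place of 114; leaving out a replicate gave 0 to 1 member and 50 to 82 miRNAs. From week 21 to week 104 (1 called), DESeq2 called 2 members and 34 miRNAs in place of 18, the lane 0 and 11, the removed library kept 0 and 0, and a mean count of at least 10 called 0 members; leaving out a replicate gave 0 and 3 to 26. From week 2 to week 104 (5 called), leaving out a replicate gave 4 to 6 and no alternative moved the count by over 1.5 times. With library size only, miR-137-3p (-0.0617), miR-137-5p (-0.33), miR-138-1-3p (-0.16) and miR-138-2-3p (-0.12) turned below 0, and miR-137-5p did so without Brn_F_104_4 (-0.0514), without Brn_F_006_2 (-0.0353) and without replicate 4 (-0.16, with 0.325 as the highest value without a replicate); the cause was not tested. No alternative called a member in the sex comparison or the interaction. Of all miRNAs, the sex comparison called 1 with library size only, 1 with the removed library kept, 4 with the lane, 6 with DESeq2 and 0 to 1 without a replicate. The interaction called 2 with library size only, 20 with DESeq2, 1 with a mean count of at least 10, 3 with the lane, 1 without Brn_F_104_4, 2 without Brn_F_006_2 and 0 to 1 without a replicate. Brain enrichment (4 members) gave 8 with library size only and 7 with a 2-fold threshold, without the share of all miRNAs to set beside these counts. The smallest value of miR-128-2-5p turned to 0.56 with library size only and that of miR-128-1-5p to -0.037 with a mean count of at least 10. In testis, miR-128-3p turned to -0.84 with library size only. In the other organs 21 member changes were called, and 18 to 24 under the alternatives.

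The ratio of miR-138-2-3p to miR-138-5p with medians was 0.39 (adjusted p = 0.0864, exact) at week 6 and 0.58 (adjusted p = 0.0501, exact) at week 21. Without single replicates it ranged from 0.46 to 0.69 at week 6, 0.54 to 0.88 at week 21 and 0.54 to 1.07 at week 104. The miR-128 copy ratio at week 21 was -0.54 with medians, now called, and -0.82 to -0.35 without single replicates. Against miR-124-3p, miR-153-3p was -0.39 with medians and miR-128-1-5p -0.48 to -0.24 without single replicates.

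The labels do not say whether a replicate number marks a rat, and it was not used to pair samples. Same-numbered brain libraries of other sexes or ages correlated at a median of -0.01 (-0.74 to 0.71, 34 of 105 pairs above 0.1), and brain and other organs of the same number, sex and age at 0.01 (67 of 278 pairs above 0.1), so that whether the numbers pair the organs of a rat is not settled. With the replicate block, 6 members were called in brain from week 2 to week 6 and 6 from week 2 to week 104, miR-137-3p being added there (0.36, adjusted p = 0.0242), the lung call of miR-153-3p was lost (0.96, adjusted p = 0.054), and enrichment held for 4 members. Members near 3 counts outside brain, the minor arms above all, are limited by depth.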

Other observations

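The minor arm of a hairpin was compared with the major arm in pooled counts, which cover counting error only. miR-153-5p was 2.24% of both miR-153 products in brain (4107 of 183569 counts, exact 95% interval 2.17 to 2.31%) and 0.732% in adrenal gland (31 of 4233 counts, 0.498 to 1.04%). It was 2.94% in spleen (2.02 to 4.12%) and 2.81% in heart (1.67 to 4.40%). In spleen, Spl_F_104_1 held 21 of the 32 counts of miR-153-5p and 506 of the 1057 counts of miR-153-3p. miR-137-5p was 0.664% of both miR-137 products in brain (319 of 48073 counts, 0.593 to 0.740%) and 1.06% in adrenal gland (26 of 2448 counts, 0.695 to 1.55%). These shares were computed after the levels were seen.

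Brn_M_006_3, which was left out, held 37984 CPM of the 21 neuronal miRNAs, against 71556 to 84301 CPM in the other 7 brain libraries of week 6. Of the members, miR-128-2-5p lay within the range of those libraries (9.59 CPM) and the remaining 9 below it.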
